A study of Homo sapiens with 4 samples.

Results

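Closely paired RAD21 summits are described here: pairs of RAD21 ChIP-seq summits that lay no more than 1000 bp apart on one chromosome in untreated wild-type HCT116 cells, a human colon carcinoma line. The members were selected on measured values, since both the presence of a peak and the position of its summit (the base of highest enrichment inside the called interval) came from the same library. Of 56853 called peaks, 55201 lay on chromosomes 1 to 22, and 2358 of these had another summit within 1000 bp. They formed 1205 neighbouring pairs, of which 1102 stood alone as a run of 2 summits, while 50 runs held 3 summits and 1 run held 4.

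The series holds 4 libraries without replicates, which the paper, a study of chromatin mobility, used to check that auxins reduce cohesin on chromatin. The libraries are a RAD21 ChIP from untreated wild-type cells, a RAD21 ChIP from the untreated HCT116_RAD21_AID line, a RAD21 ChIP from that line after 6 h with 2 auxins at 500 µM each, and an Input of the auxin-treated cells. HCT116_RAD21_AID is a single clone in which RAD21 carries a mini auxin-inducible degron and in which the plant F-box protein OsTIR1 is expressed. The wild-type peaks alone entered the analysis; the remaining 3 libraries are not analysed here. With 1 library there is no replicate spread, so all values below are descriptions, the 95% intervals cover counting error only, and no difference between paired and other summits was tested over samples. Intervals of shares of members take each summit as a separate draw, although members come in runs, so they are too narrow.

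RAD21 is the kleisin subunit that closes the ring of cohesin, the complex that holds sister chromatids together and extrudes chromatin loops. Extruding cohesin is halted at DNA bound by CTCF, a zinc finger protein whose recognition sequence has a direction, and the anchors of long loops usually carry sites that point towards each other (convergent). Cohesin is also loaded and found at active promoters, where sites for CTCF may be missing.

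The sequences under paired summits are shown first, because the orientation of the CTCF sites rests on them. A site was a 20-base match to a matrix built around the CTCF core CCANNAGNNGGC (both strands, within 50 bp of the summit) at a score that the best match in 1.00% of control windows reached. In this core, N stood for C or G, C or T, A or G, and G or T, in that order, and any other base there counted as changed. Each sequence below is 40 bases of GRCh38, read 5′ to 3′ along the strand of the site, with the 20 bases of the matrix match in capitals. The pairs are the convergent, divergent and same-strand pairs with the strongest lower summit, and a same-strand pair near ACO1 whose matches have identical letters.
PPP2R2C intron, left summit, chr4:6548709-6548748, plus strand: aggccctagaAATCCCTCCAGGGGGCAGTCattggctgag
PPP2R2C intron, right summit, chr4:6549631-6549670, minus strand: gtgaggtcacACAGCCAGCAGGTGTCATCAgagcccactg
HID1, left summit, chr17:74960828-74960867, minus strand: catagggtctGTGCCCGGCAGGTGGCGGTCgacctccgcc
HID1, right summit, chr17:74961745-74961784, plus strand: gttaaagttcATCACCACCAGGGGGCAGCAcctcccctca
SPR, left summit, chr2:72892867-72892906, plus strand: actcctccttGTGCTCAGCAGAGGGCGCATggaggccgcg
SPR, right summit, chr2:72893787-72893826, plus strand: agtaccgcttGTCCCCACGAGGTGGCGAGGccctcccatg
ACO1, left summit, chr9:32378674-32378713, plus strand: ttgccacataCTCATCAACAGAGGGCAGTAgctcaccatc
ACO1, right summit, chr9:32379432-32379471, plus strand: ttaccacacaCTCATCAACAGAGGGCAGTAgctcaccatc

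These matches are descriptions of sequence, and binding of CTCF was not measured. The PPP2R2C sites point towards each other, the HID1 sites point away from each other, and the SPR and ACO1 sites all lie on the plus strand. None of these 8 printed matches needed to be exact. In simulated windows, sites with a single changed core base were nearly always found (99.2%), those with 2 changed bases in 57.4%, and those with 3 never. The simulation scored a rounded matrix against equal base frequencies. The scan of the data used the base composition of the summit windows, at the same threshold, so these rates are only approximate for it. Where a summit is said below to lack a site, a more diverged site may therefore be present.

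Paired summits lay mainly at gene starts. Of the 2358 members, 1273 (54.0%, 95% Wilson interval 52.0 to 56.0) were within 1000 bp of a transcription start annotated by GENCODE, against 22.7% of the other summits and 24.0% of all autosomal summits. Introns held 20.4% of the members and 39.0% of the other summits, and intergenic sequence held 21.6% and 33.0%. Exons away from a start held 4.07% of the members and 5.26% of the other summits. For protein-coding starts alone the shares were 46.6% (1100 members) and 17.1%. The promoter share also varied with fold enrichment. At 1 to 3 it was 52.6% of members and 30.8% of others, and at 3 to 5 it was 63.4% and 28.6%. At 5 to 10 the shares were 42.7% and 17.5%, at 10 to 20 they were 42.6% and 16.5%, and at 20 or more 31.5% and 19.7%. Most members of 5 or more thus lay away from starts.

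**Figure D1:**
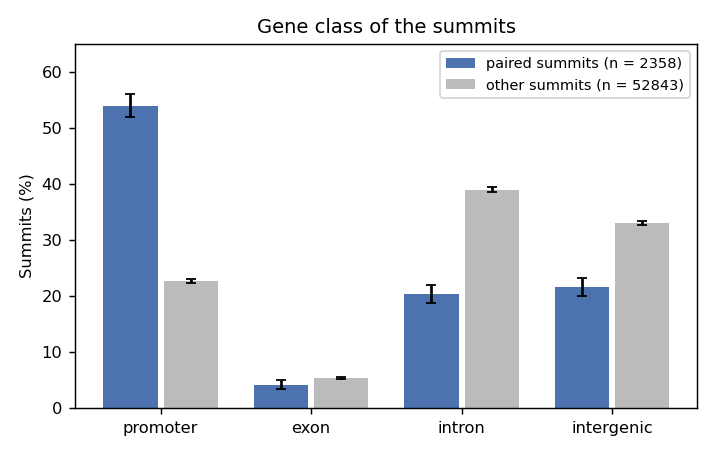
Share of paired and other autosomal RAD21 summits (%, y axis) at promoters (within 1000 bp of a start), exons, introns and intergenic sequence, with 95% Wilson intervals as error bars. Promoters held 54.0% of the paired summits and 22.7% of the others.

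The promoter class usually applied to a pair as a whole. Both summits were at a promoter in 599 of 1205 pairs (49.7%), 1 summit was in 108 (8.96%), and neither was in 498 (41.3%). Both were at a promoter in 25.8% of neighbours at 1 to 2 kb and 8.85% of those at 2 to 5 kb. The promoter limit equals the limit of pairing, 1000 bp, which by itself favours a shared class in close pairs. In 444 pairs (36.8%, 34.2 to 39.6) a protein-coding start lay between the summits, so that the pair flanked it. The start was on the plus strand in 209 of them and on the minus strand in 178, and 57 pairs enclosed starts of both strands, as at OXLD1 and CCDC137 on chromosome 17, whose summits were 342 bp apart with fold enrichments of 2.10 and 2.84. How often a start lies between neighbours farther apart was not counted.

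Among the pairs around a start, the strongest by its lower summit flanked PLEKHG2, which encodes a guanine nucleotide exchange factor, with 26.7 at 682 bp upstream and 13.3 at 150 bp downstream. EGLN2, an oxygen-dependent prolyl hydroxylase that acts on HIF, had 6.80 and 6.96 on the 2 sides of a start. NHLRC1, which encodes the ubiquitin ligase malin, had 6.99 and 13.8, and AP3M2, an adaptor complex subunit, had 8.20 and 17.5. RSAD1 had 18.1 near its start and 5.84 at 596 bp downstream. The lower and higher sides thus differed from gene to gene. Over the 387 pairs around a start of a single strand, the summit upstream was the higher in 205 (53.0%, 48.0 to 57.9), and the median fold enrichments were 3.40 upstream and 3.27 downstream. In the 96 of these whose summits differed at least 2-fold, the upstream summit was the higher in 69 (71.9%, 62.2 to 79.9).

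Of the 1100 members within 1000 bp of a protein-coding start, 523 (47.5%) were upstream of it, and 288 (26.2%) were within 100 bp; of the 9010 other summits there, 47.4% were upstream and 30.3% within 100 bp. The sequence around the members was richer in G and C, with a mean GC content of 61.0% ± 11.1 (SD over 2358 windows centred on the summits) against 53.2% ± 11.2 for the other summits. The observed to expected CpG ratio had a mean of 0.566 ± 0.314 (SD) against 0.354 ± 0.274.

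Several known gene groups were looked up among the members, beside the peaks in or within 1000 bp of the same genes. Members made up 4.27% of all autosomal summits and 9.59% of those at promoters, and the shares below stand beside these. The cohesin and CTCF genes had 6 members among 20 peaks (30.0%, 14.5 to 51.9). STAG1, a cohesin subunit that binds the ring, carried promoter summits of 34.5 and 2.56, the latter with 17 fragments. The acetyltransferase ESCO1, which modifies the SMC3 subunit, carried 4.96 and 3.26. Genes of the WNT pathway had 8 members among 51 peaks (15.7%, 8.17 to 28.0). At CCND1, which encodes cyclin D1, 42.7 stood beside a weak summit of 2.90 with 19 fragments. At TCF7L1, a transcription factor of the pathway, 14.1 stood beside 2.32 with 15 fragments. At ZNRF3, a ubiquitin ligase that removes WNT receptors, 6.57 in an intron stood beside 3.57. Cytosolic ribosomal protein genes had 10 of 81 (12.3%, 6.85 to 21.3), histone genes 6 of 41 (14.6%, 6.88 to 28.4), zinc finger genes 40 of 497 (8.05%, 5.97 to 10.8), keratins 2 of 38 (5.26%) and HOX genes 1 of 37 (2.70%). The intervals of the WNT, ribosomal protein, histone and zinc finger genes included the 9.59% of promoter summits. That of the cohesin and CTCF genes lay above it, with both summits of the STAG1 and ESCO1 runs counted. Summits of 1 run are not separate draws, so all these intervals are too narrow. No member lay at the 39 peaks of clustered protocadherins or the 52 peaks of olfactory receptors, where the upper ends of the intervals were 8.97% and 6.88%. No test of these lists was made.

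The distance between the summits of a pair had a median of 787 bp (773 to 801), with quartiles of 667 and 899 bp and a minimum of 306 bp. The number of pairs rose with distance, from 12 at up to 400 bp to 298 in the last 100 bp before the limit. The bases between the called intervals had a median of 358 and were never fewer than 223, while the narrowest called interval was 222 bp wide. How far the peak calls set the low end of the spacing was not tested.

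The members just inside and just outside the limit are given as values only. Pairs at exactly 1000 bp included NEK7, a mitotic kinase (5.25 and 2.52, with its start between them), BBS10, a chaperonin-like protein of the primary cilium (6.79 and 8.31), and a pair near STC2 (24.5 and 2.36). Neighbours 1 bp beyond the limit lay near CCR4 (3.99 and 7.20) and at NCOA2 (2.59 and 4.87). The closest pairs included MTMR10, with 2.31 and 2.31 at 345 bp around its start, and ZC3H12C, with 3.55 and 3.14 at 378 bp and both summits upstream of the start.

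Most paired summits were weak. The fold enrichment (signal over local background, as the peak caller gave it) had a median of 3.33 with quartiles of 2.75 and 4.79, against a median of 5.76 for the other summits, and 240 members (10.2%) reached 10, against 27.4% of all autosomal summits. The fragments under a summit, recovered from the deposited values, had medians of 29 and 50. Since a summit's strength bears on whether it is called at all, these values describe the selection and were not tested.

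Within a pair the summits were usually close in fold enrichment. By −log10 q, given further below, 59.3% of pairs differed at least 2-fold. The higher summit was a median of 1.41 times the lower (quartiles 1.17 and 2.17), which is 0.49 on the log2 scale (0.46 to 0.55), with medians of 4.20 and 2.85. The 2 summits differed at least 2-fold in 331 pairs (27.5%, 25.0 to 30.1), against 46.3% of all neighbouring autosomal summits, and at least 4-fold in 148 (12.3%). With each local background taken as exact, they differed beyond the counting error of fragments in 477 pairs (39.6%), against 63.5% of all neighbours. Such a difference is harder to reach with few fragments, and members had a median of 29 fragments against 50 for the other summits. How far this lowered the share was not tested. The left summit on the chromosome was the higher in 612 pairs (50.8%, 48.0 to 53.6). Both summits were under 5 in 726 pairs (60.2%), and both reached at least 10 in 12 pairs (0.996%). Neighbours at 1 to 2 kb had a median of 0.77 on the log2 scale and those at 2 to 5 kb had 0.90.

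The most unequal pairs joined a very strong summit to one near the calling limit. Near IER5 the summits had 2.41 and 74.5 (22 and 536 fragments), a ratio of 30.9. At the promoter of WNT7A, a secreted WNT ligand, they had 2.25 and 62.8 on the 2 sides of the start, and neither had a CTCF site. At FES, which encodes a tyrosine kinase, they had 63.8 and 2.90. In these pairs the weaker summit held 22, 29 and 19 fragments.

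The strongest pairs, by their lower summit, had both summits high. The pair 5487 and 6403 bp downstream of the SPR start had 29.9 and 17.2 (224 and 118 fragments). Its left-to-right ratio had an exact conditional 95% interval of 1.37 to 2.16, so that the left was the higher beyond the counting error of fragments. A pair upstream of MASP1, a protease of the lectin pathway of complement, had 16.8 and 26.2. In an intron of PARD3, a cell polarity protein, the values were 16.4 and 13.9, and the interval of their ratio, 0.92 to 1.45, included 1. Its fragments were 202 and 131, over local backgrounds of 11.4 and 8.52. At HID1 the fold enrichments were 13.8 and 14.5 (0.80 to 1.23). The HID1 fragments were 138 and 261, over backgrounds of 9.05 and 17.0, so its near-equality rests on the background. The PARD3 and HID1 pairs could thus not be told from equal fold enrichment at this depth, although their fragments differed.

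**Figure D2:**
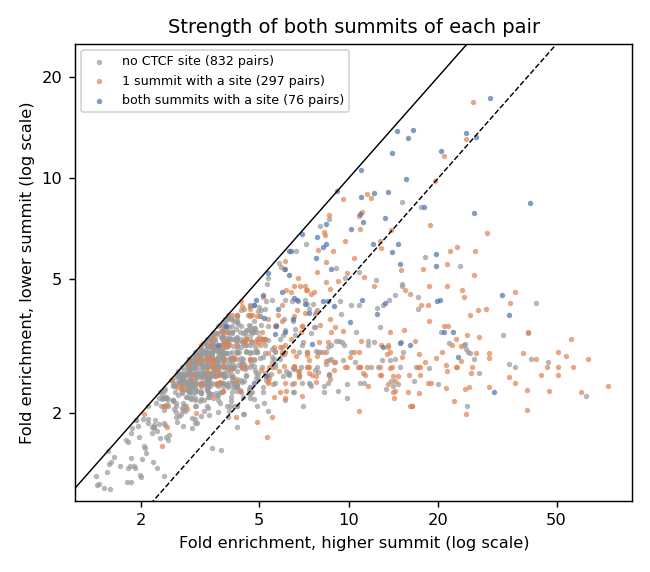
Fold enrichment of the lower (y axis, log scale) against the higher summit (x axis, log scale) of each pair, coloured by the number of summits with a CTCF site; the solid line marks equal strength and the dashed line a 2-fold difference. Most pairs sit below 5 on both axes, and pairs with a site at both summits (76) lie towards the upper right.

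CTCF sites were less common under paired summits. A site was found at 443 members (18.8%, 17.3 to 20.4), against 47.3% of the other summits and 46.1% of all autosomal summits. The share was 10.6% for members at promoters and 28.4% for those elsewhere, against 30.7% and 52.2% of other summits. It rose with fold enrichment in both groups: 2.71% of members and 8.01% of others had a site at fold enrichments of 1 to 3. At 3 to 5, the range with the most members (911), the shares were 11.6% and 32.3%, and at 5 to 10 they were 45.2% and 58.7%. At 10 to 20 they were 68.2% and 70.7%, and at 20 or more 71.7% and 76.5%. The members' share was thus the lower in each range of strength, with the intervals of the 2 groups overlapping from 10 upwards. No test of these differences was made.

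Pairs with no site numbered 832 (69.0%), with 1 site 297 (24.6%) and with 2 sites 76 (6.31%). The share with 2 sites was higher in neighbours farther apart, at 15.6% at 1000 to 2000 bp and 21.6% at 2000 to 5000 bp. It was 22.1% at 5000 to 10000 bp, 23.9% at 10000 to 50000 bp and 26.7% over 50000 bp. No test of these differences was made. Within the close pairs, the median ratio of the higher to the lower summit was 1.31 with no site, 2.36 with 1 and 1.69 with 2. In the pairs with 1 site, it lay under the higher summit in 252 of 297 (84.8%, 80.3 to 88.5), and in 153 of the 162 whose summits differed at least 2-fold (94.4%). Over all autosomal summits the share with a site rose from 7.51% at fold enrichments of 1 to 3 to 76.5% at 20 or more. How often a single site lay under the higher summit was not counted for neighbours farther apart, so this placement is not shown to be particular to close pairs.

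The 76 pairs with a site at both summits gave an orientation. The sites were on the same strand in 43 pairs (56.6%, 45.4 to 67.1), divergent in 24 (31.6%, 22.2 to 42.7) and convergent in 9 (11.8%, 6.36 to 21.0). Of the same-strand pairs, 22 had both sites on the plus strand and 21 on the minus strand. Neighbouring summits at 1 to 2 kb had 59.0%, 24.3% and 16.7% in the same order, and those over 50 kb apart had 49.8%, 20.6% and 29.7%. The interval of the convergent share at up to 1 kb thus lay below the share found over 50 kb, and it overlapped the shares found from 1 to 50 kb; no test of these differences was made.

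The strongest convergent pair was the PPP2R2C pair printed above, in an intron of a regulatory subunit of protein phosphatase 2A, with 10.9 and 7.83. Divergent pairs besides HID1 included one far from ZNF644 on chromosome 1 with 24.8 and 13.6, and one near CALCB with 9.03 and 12.2. Same-strand pairs included PLEKHG2, PARD3 and a pair upstream of ADGRE1 with 20.5 and 12.1. The strongest pairs thus occurred in each orientation except the convergent one, where no lower summit passed 7.83.

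Some pairs lay in repeated sequence. A stretch of 20 bases was shared by the windows around both summits in 62 pairs (5.15%, 4.03 to 6.54), on the same strand in 60 of them. Their median fold enrichments were 2.32 and 1.84. In 24 of the 62 a summit had a local background of at least 10 times the lowest in the list, which among all pairs held for 45 (3.73%). Counted by summit, it held for 3.10% of the members and 0.84% of all autosomal summits. The shared stretches lay exactly 680 bp apart in 12 pairs. Compared at the offset of the shared stretch, the windows of the 60 same-strand pairs had a median identity of 81.8%, from 40.3% to 100%. Reads from near-identical copies cannot be placed with certainty. The position of the summits is thus uncertain in the pairs whose windows were nearly identical. The run of 4 summits on chromosome 21 had fold enrichments of at most 1.84 over backgrounds of 191 to 249 fragments. Leaving out all peaks with such a background kept 1160 pairs, with 55.3% of members at promoters and 19.3% with a CTCF site.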

How the data were processed

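The authors trimmed the reads with Trimmomatic 0.39, aligned them to GRCh38 with Bowtie2 2.5.3, marked duplicates with Picard and called peaks with MACS2 2.2.9.1 against an Input at a q-value of 0.05; which Input served the wild-type library is not given in the sources used here. The deposited list gives each peak its fold enrichment (a ratio to local background), −log10 p and −log10 q values, a summit offset and a display score, which was not used. Fragments and background were solved from the fold enrichment and −log10 p, taking the pseudocount of 1 that MACS2 adds, and gave whole numbers within 0.05 for all but 14 peaks.

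Summits were paired at up to 1000 bp with Python 3.11.15, numpy 2.4.6, pandas 2.3.3 and scipy 1.17.1. Classes came from GENCODE v44. The CTCF matrix was learned from 6220 exact matches to the core at summits that were not members, and its threshold came from 101723 control windows placed 5000 bp from summits. Because only exact matches trained it, each changed core base costs much score. Simulated windows tested how many planted sites it finds, with scores against equal base frequencies, unlike the scan. Simulated peaks tested the recovery of fragments. Shares have Wilson intervals, and ratios within pairs have exact conditional binomial intervals. Both cover counting error only, and the Wilson intervals take each summit as a separate draw. The ratio intervals count the fragments and take each local background as exact, so counting error of the background is left out. Named pairs were those with the strongest lower summit, in all and per orientation, the most and least equal, the closest and widest, and those around a start; family members were named by fold enrichment. Members and lists were chosen with earlier results of these data known. A pair that the naming rule selects is not reported here.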

Additional observations from a re-analysis of the deposited data

How the results depend on the processing

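No paired analysis was possible because each group holds 1 library, and no value here comes from a test between groups; no group has a replicate to leave out. Of 119 values recomputed under an alternative, 73 stayed inside the 95% interval of the value reported (within 1.5 times for a count) and 46 moved; why they moved was not tested.

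Stricter peak calls moved strength and sites. At a q-value of at most 0.01 the median fold enrichment was 3.43. At 0.001 it was 3.64, the median spacing 804 bp, the median log2 ratio 0.46, the promoter share 56.5% and the share with a CTCF site 22.2%. At 1e-05, 820 members in 414 pairs were left, with a median spacing of 825.5 bp, a median fold enrichment of 4.35, 49.9% at promoters and 31.8% with a site. With a limit of 500 bp there were 138 members in 69 pairs, with medians of 460.0 bp, 0.32 (log2 ratio) and 2.82 (fold enrichment), 10.1% differing at least 2-fold and 5.80% of members with a site; the only pair with 2 sites was on the same strand, so the shares were 0% convergent, 0% divergent and 100% same strand. With a limit of 2000 bp there were 7416 members in 3966 pairs, with medians of 1247.5 bp, 0.67 and 3.94, 38.0% differing at least 2-fold, 41.3% at promoters and 29.7% with a site. Keeping only peaks with a background under 2 times the lowest gave a median fold enrichment of 3.48 and 56.7% at promoters.

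The balance within pairs depended on the measure of strength: by −log10 q the median log2 ratio was 1.31 and 59.3% differed at least 2-fold, and by fragments above background 0.71 and 37.3%. The promoter share was 61.2% within 2 kb of a start and 56.5% by the whole peak. The share of members with a CTCF site was 4.58% for the exact consensus (0% convergent and 42.9% divergent, of 7 pairs), against 11.7% of the other summits. It was 15.9% with 1 mismatch, 17.0% within 100 bp of the summit and 33.1% at a threshold passed by 5% of control windows. For these last settings the share of the other summits is not given here. Alternatives chosen after seeing the data gave 22.7% for a matrix learned again and a median log2 ratio of 0.58 for pairs with both fold enrichments of at least 5.

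Few pairs carry 2 sites, so the orientation shares have wide intervals, and weak summits limit how exactly a ratio is known.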

Other observations

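Outside chromosomes 1 to 22, 12 of 1135 summits on chromosome X had another summit within 1000 bp. On chromosome Y 19 of 61 did, 9 of them over a high background, and on unplaced or unlocalized sequences 61 of 456 did, 40 of them over a high background, that is, at least 10 times the lowest in the list.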
